A study of Mus musculus with 4 samples.

Results

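The genes described here are 36 complement and coagulation factors of the mouse liver, of which 19 belong to complement and 17 to coagulation and fibrinolysis. They were chosen by name from the gene column of the array files, among spots that are not controls, and were represented by 52 probes. Of the 30139 gene names on the array, 16079 were tested, and these included 35 of the 36 factors. The remaining factor, Cfd, the protease factor D, had 1 probe that was not well above background in any of the 4 AAV_Cre or the 4 AAV_Null channels and has no fold here. Fat is the main source of factor D in adult mice.

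The study compared whole livers of C57B/6 females aged 8 to 10 weeks, all homozygous for a floxed allele of Trib1 and all fed chow and fasted for 4 hours, at 1 week after an adeno-associated virus. One group had received a virus with Cre recombinase (AAV_Cre), which excises floxed sequence, and is called a liver-specific knockout by the submitters. The other had received a control virus (AAV_Null) and is called wild type, although it carries the same floxed alleles. The study's title places Trib1, a pseudokinase that delivers C/EBPα to an ubiquitin ligase, in the control of hepatic lipid synthesis. The labels do not give the promoter that drives Cre, the excised part of Trib1, or whether an RNA came from 1 animal or a pool. Each of 4 two-dye arrays held 1 RNA of each kind, and the dyes were exchanged halfway: the AAV_Cre RNA carried Cy5 on arrays 1 and 2, and Cy3 on the other two.

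Hepatocytes make most of the circulating complement and clotting proteins. In complement, C1r and C1s or the mannose-binding lectins with their MASP proteases cut C4 and C2, the resulting enzyme cuts C3, and C6, C8 and C9 then join C5b to form a pore in the target membrane. In coagulation, proteases that need vitamin K act on each other with the cofactors V and VIII until thrombin makes fibrin, while the contact phase starts a parallel branch and protein C with protein S shuts off the cofactors. C/EBPα, HNF1 and HNF4 are liver transcription factors with known roles at several of these genes.

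Of the 35 factors tested, F11 was the 1 factor higher in RNA labelled AAV_Cre, and F13b, Proc and Proz were lower, at an adjusted p under 0.05 in limma over all genes tested. All of these calls were coagulation genes. Trib1 itself had a fitted 0.94, above the AAV_Null level on every array, so all directions are those of the library labels. With the sign turned, F11 would stand at 0.655 of the level in the other RNA, and F13b, Proc and Proz at 1.42, 1.35 and 1.38-fold. The background was 1.78% of all genes called higher and 0.983% called lower. The 18 complement genes tested gave no call, with 12 lower and 2 higher at an unadjusted p under 0.05. Over all genes 22.6% reached that level, 1767 of them lower and 1865 higher. Under other settings complement genes were called too: 10 with an intensity trend and robust variance estimate, 4 from the authors' deposited values, 4 at an adjusted p under 0.10, 3 under median centring, 2 with all 8 channels above background, 1 without the dye effect and 1 from scanner-processed ratios. Calls over all genes, 445 in the main fit, were then 1472 with the trend and robust estimate, 1382 from the deposited values and 1287 at the looser threshold. They were 756 under median centring, 730 from scanner-processed ratios and 270 without the dye effect. The 4 calls were lost when any 1 of the 4 arrays was left out. In those fits 14, 10, 20 and 18 factors had an unadjusted p under 0.05 without arrays 1 to 4 in turn, against 15.1%, 13.3%, 19.9% and 20.9% of all genes. They were also lost with a background offset of 16 or without the pooled variance estimate. Proc and Proz were further lost without the dye effect (adjusted p = 0.0897 and 0.118) and with no filter on dim probes (adjusted p = 0.0533 and 0.0674), and Proc under median centring (adjusted p = 0.0890).

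The promoters of the called genes are shown for their sequence near the start site, where liver transcription factors bind. RefSeq windows of 300 bases (GRCm38.p6), from 250 before to 50 after the start, were matched for 27 of the 36 factors. They were not given for Cfb, C2, C4b, Cfi, Fgl1, Kng1, Masp1, Plg and Proc. Capitals mark the letters searched for, on either strand. They are TTGCNNAA for C/EBP in F11, at chr8:45261982-45262281 on the minus strand, and GTTAATNAT for HNF1 in F13b, at chr1:139501457-139501756 on the plus strand. Proz, at chr8:13060658-13060957 on the plus strand, had neither.
F11: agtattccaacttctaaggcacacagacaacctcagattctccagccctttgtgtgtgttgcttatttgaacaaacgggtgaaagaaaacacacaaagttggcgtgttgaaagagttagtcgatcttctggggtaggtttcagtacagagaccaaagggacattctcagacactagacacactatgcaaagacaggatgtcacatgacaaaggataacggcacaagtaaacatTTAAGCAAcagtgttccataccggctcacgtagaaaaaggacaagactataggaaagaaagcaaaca
F13b: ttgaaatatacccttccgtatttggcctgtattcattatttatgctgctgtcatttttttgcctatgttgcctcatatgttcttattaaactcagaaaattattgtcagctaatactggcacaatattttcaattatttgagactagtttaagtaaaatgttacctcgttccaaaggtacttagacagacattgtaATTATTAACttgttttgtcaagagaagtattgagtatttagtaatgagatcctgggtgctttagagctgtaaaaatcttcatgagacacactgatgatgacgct
Proz: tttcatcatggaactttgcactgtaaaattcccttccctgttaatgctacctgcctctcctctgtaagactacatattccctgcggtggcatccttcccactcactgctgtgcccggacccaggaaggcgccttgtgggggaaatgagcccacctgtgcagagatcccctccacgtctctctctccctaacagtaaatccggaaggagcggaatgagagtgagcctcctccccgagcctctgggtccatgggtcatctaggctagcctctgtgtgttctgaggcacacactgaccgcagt

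The C/EBP letters were in windows of 8 of the 27 matched factors (C1ra, C1s, C3, C9, Cpb2, F9, F11 and Klkb1), or 29.6%, and in 10.8% of the 32851 windows of the RefSeq table. A factor was counted when any of its windows held the letters, whereas the share over the RefSeq table counts single windows. The HNF1 letters were in windows of C4bp and F13b, 7.41% of the matched factors against 0.801% of all windows. The HNF4 letters CAAAGTCC were in 0 of the 27, against 1.42% of all windows. No window of a factor held both. These matches are descriptions of sequence, and binding was not measured. The factors that hold the C/EBP letters included the called F11, at 0.61 on the log2 ratio scale, and genes of opposite sign such as Klkb1 at -0.22 and C1ra at -0.42.

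The contact phase held the highest ratio of AAV_Cre over AAV_Null as labelled. F11, factor XI, the zymogen that activates factor IX, had log2 ratios of AAV_Cre over AAV_Null of 0.43, 0.67, 0.76 and 0.57 on arrays 1 to 4. The fit gave 0.61 ± 0.07 (SE, n = 4 arrays), or 1.53-fold, with a 95% interval of 0.43 to 0.79 and an adjusted p of 0.0319 in limma. F11 was higher on every array, and its means within the orientations were 0.55 on arrays 1 and 2 and 0.67 on arrays 3 and 4. Its normalised log2 intensity ran from 12.75 to 13.20 in AAV_Null RNAs and from 13.42 to 13.96 in AAV_Cre RNAs, so the groups did not overlap. Klkb1, plasma prekallikrein and the neighbour of F11 on chromosome 8 with 0 protein-coding genes between them, had -0.34, -0.32, -0.03 and -0.19. Its fitted ratio of -0.22 ± 0.05 (SE, n = 4) had an adjusted p of 0.117, so the neighbours stood on opposite sides of 0. F12, factor XII, had -0.03, and Kng1, a kininogen, had 0.08, each below 0 in 1 orientation and above 0 in the other. A dimmer Kng1 probe, assigned to another transcript, had -0.05.

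The vitamin K dependent proteins gave 2 calls among 7 genes, both lower. Proc, the anticoagulant protein C, had ratios of -0.53, -0.61, -0.25 and -0.33, and its fitted ratio of -0.43 ± 0.05 (SE, n = 4) was 74.3% of the AAV_Null level (adjusted p = 0.0360 in limma). Proc was lower on all 4 arrays. The fall was -0.57 on average in arrays 1 and 2 and -0.29 in arrays 3 and 4. Its AAV_Cre intensities lay between 15.14 and 15.22, below the AAV_Null range of 15.40 to 15.83.

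Proz, protein Z, the cofactor of the inhibitor that blocks factor Xa, had -0.74, -0.56, -0.17 and -0.39. Its fitted ratio of -0.46 ± 0.07 (SE, n = 4) was 72.6% of the AAV_Null level (adjusted p = 0.0486). A second Proz probe had -0.35, -0.35, -0.09 and -0.30, with a fitted -0.27 at an adjusted p over probes of 0.0988. Both probes were below 0 on every array, and the mean of the pair, -0.37, did not pass the threshold (adjusted p = 0.0630). F7 and F10, the proteases VII and X that precede Proz on chromosome 8 with 0 protein-coding genes between neighbours, had -0.21 and -0.02. F2, prothrombin, had 0.38, 0.42, -0.36 and -0.39, so that its sign followed the dye and its fitted value was 0.01. F9, factor IX, had -0.03. Pros1, protein S, the cofactor of protein C, had 0.21, 0.13, 0.40 and -0.04, with a fitted 0.18 at an adjusted p of 0.324.

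**Figure D1:**
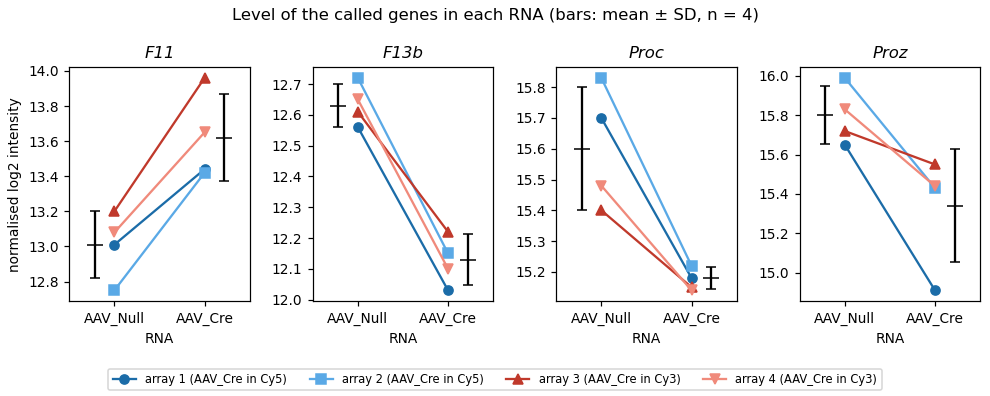
Normalised log2 intensity of F11, F13b, Proc and Proz (vertical axis, scaled per gene) in the AAV_Null and AAV_Cre RNA of each array, joined by a line, with bars for the mean ± SD of 4 RNAs. F11 rose on each array and the other genes fell on each, with no overlap between the RNAs.

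The fibrin group gave 1 call. F13b, the carrier subunit of factor XIII, which crosslinks fibrin, had -0.53, -0.57, -0.38 and -0.56 on arrays 1 to 4, a mean over 10 spots of 1 probe. Its fitted ratio of -0.51 ± 0.06 (SE, n = 4) was 70.3% of the AAV_Null level, with a 95% interval of -0.66 to -0.36 and an adjusted p of 0.0314 in limma. F13b was lower by similar amounts in both orientations, -0.55 and -0.47, and its AAV_Cre intensities of 12.03 to 12.22 lay below the AAV_Null range of 12.56 to 12.72. Plg, plasminogen, which dissolves fibrin, had -0.13, and Fgl1, a secreted fibrinogen-like protein, had -0.25 with a wider SE of 0.15. Cpb2, the carboxypeptidase that protects fibrin from plasmin, had 0.12, 0.08, 0.31 and -0.06. None of these 3 passed the threshold, and the cofactors F5 and F8 had 0.07 and -0.03.

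The largest ratio among all factors was in the terminal complement pathway and was not called. C8a, the α chain of C8, had -1.50, -0.38 and -1.46 on arrays 2, 3 and 4, and its spot on array 1 was marked as an outlier and left out. The fitted ratio of -1.21 ± 0.25 (SE, n = 3 arrays) was 43.2% of the level in RNA labelled AAV_Null, or 2.31-fold with the sign turned, and had an adjusted p of 0.112. A second, dimmer C8a probe had -0.50, -0.63, -0.02 and -0.94, with a fitted -0.52 and an adjusted p over probes of 0.162. Both probes were below 0 on every array measured, and both were closest to 0 on array 3. Without array 2, 3 or 4 the first probe no longer met the test's requirements and the gene stood as the second probe, at -0.49, -0.75 and -0.29.

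C8b, the β chain of C8 and the neighbour of C8a on chromosome 4, had -0.79, -0.78, 0.08 and -0.36, with a fitted -0.46 at an adjusted p of 0.0746. C9, which forms the ring of the pore, had -0.99, -1.08, 0.51 and -0.28, and C8g, the γ chain, had -0.11, -0.07, -0.16 and -0.23. The falls of C8b and C9 were thus on arrays 1, 2 and 4, while array 3 stood above 0 for both. Both also differed by dye, with fitted dye effects of -0.32 and -0.58. The means on arrays 1 and 2 and on arrays 3 and 4 were -0.78 and -0.14 for C8b, and -1.04 and 0.11 for C9. C6, which binds C5b, had 0.09, 0.01, 0.69 and 0.27, above 0 on every array, and its fitted 0.26 had an adjusted p of 0.174.

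In the classical pathway all 4 genes had fitted ratios below 0 and none was called. C1ra, which encodes the protease C1r, had -0.29, -0.51, -0.40 and -0.48 and a fitted -0.42 ± 0.06 (SE, n = 4), at an adjusted p of 0.0506 just past the threshold. It lies beside C1s, whose product C1r activates and which had -0.19, and the near copy C1rb had -0.36, so the array may not separate C1ra from C1rb. C2, the protease component of the C3 convertase, had -0.38, -0.67, -0.10 and -0.50, and its neighbour Cfb, which has the same part in the alternative pathway, had -0.34, -0.35, -0.11 and -0.45. Their adjusted p-values were 0.10 and 0.105, and both genes were below 0 on every array, with array 3 nearest to 0. C4b, which also has a near copy in the mouse genome, had -0.24, -0.22, 0.58 and -0.31, so that array 3 alone stood above 0.

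In the lectin pathway, Mbl1, the mannose-binding lectin A, had -0.79, -0.42, -0.30 and -0.59, with a fitted -0.53 ± 0.09 (SE, n = 4), 69.4% of the AAV_Null level (adjusted p = 0.0642). Mbl2, the mannose-binding lectin C, had 0.46, 0.58, -0.48 and -0.54 and a fitted ratio of 0.004. Mbl1 was thus below 0 in both orientations, while Mbl2 changed sign with the dye. Masp1, a protease bound to these lectins, had -0.04, and its 3 probes ran from -0.04 to 0.01.

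Masp2 was measured by 3 probes that did not move together. The gene encodes the protease MASP-2 and, by alternative splicing, a short protein without the protease domain. The probe that the array assigns to transcript variant 1, at base 2947 of its transcript and chr4:147989478-147989537 (mm9), had 0.47, 0.46, 0.40 and 0.38. It had a fitted 0.43 ± 0.05 (SE, n = 4), or 1.34-fold, at an adjusted p over probes of 0.0345. The probes assigned to the short transcript variant 2, at bases 677 (chr4:147978456-147978515) and 513 (chr4:147977855-147977914), had fitted ratios of -0.17 and -0.13 at adjusted p-values over probes of 0.148 and 0.238. Exon positions are not given here, so a probe assigned to 1 variant may also measure sequence that the variants share. Base numbers are those of the probe's first base in the array's transcript, and the first 30 bases of each probe of 60 are shown to tell them apart.
Masp2 variant 1, base 2947: gctatattgcatcttcccacataagtcacc
Masp2 variant 2, base 677: aggctggaatgactgccagctacagcaccc
Masp2 variant 2, base 513: aactacttgggcggctactattgctcctgc

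The variant 1 probe stood above the brightest variant 2 probe by 0.74, 0.78, 0.42 and 0.47 on arrays 1 to 4, the same sign on each. The fitted difference was 0.60 ± 0.05 (SE, n = 4), with a 95% interval of 0.47 to 0.73. Its adjusted p was 0.0548 over 4254 probe pairs of all genes, of which 0.0235% passed 0.05, so the difference itself was not called. The brightest probe stands for the gene, so Masp2 entered the counts at -0.17, and with the mean of its probes it had 0.04. This difference was fitted after the probe values had been seen.

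Other factors with several probes also differed between probes by amounts that were not called. The C8a probes differed by 0.65 (95% interval 0.43 to 0.88, n = 3 arrays), with an adjusted p of 0.135. F10 had -0.02 and -0.30 on probes for different transcripts, a difference of -0.28 at an adjusted p of 0.229. The brighter F10 probe opens with a simple repeat. F5, factor V, had 0.07 and 0.27, with a difference of 0.20 at an adjusted p of 0.190. A second C1ra probe had usable spots on only 2 arrays, with -0.55 on array 3 and -0.71 on array 4, below the tested probe on both. It was the brighter probe, at a mean log2 intensity of 15.23 against 12.79, so C1ra stands here as its dimmer probe.

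**Figure D2:**
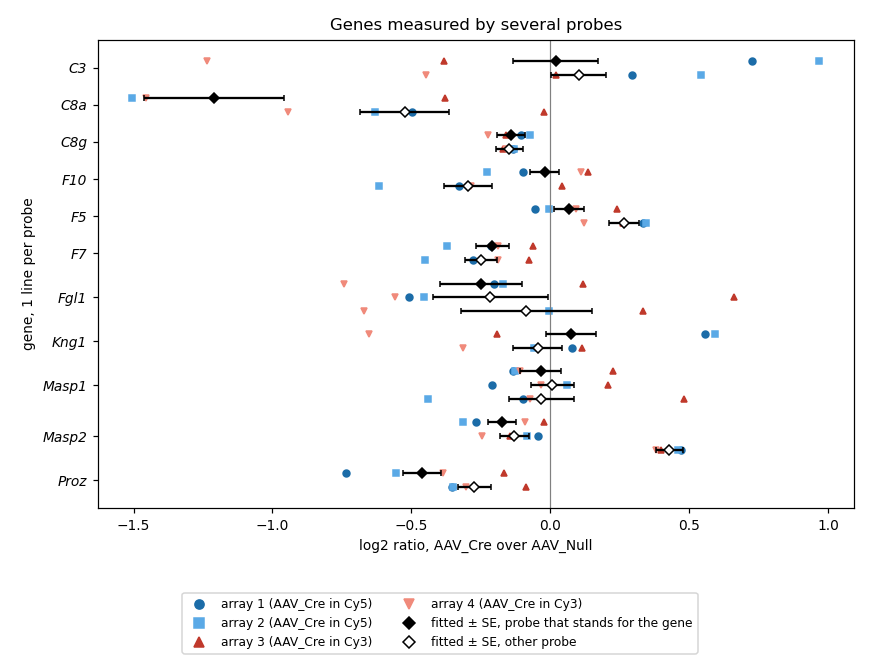
Log2 ratio (AAV_Cre over AAV_Null) of each tested probe of the genes with several tested probes, 1 line per probe, with the value on each array and the fitted ratio ± SE. The Masp2 probe assigned to variant 1 lies at 0.43 with all arrays close together, apart from the other Masp2 probes at -0.17 and -0.13.

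Among the complement regulators, Vtn, vitronectin, which blocks insertion of the pore, had -0.56, -0.59, -0.30 and -0.71. Its fitted -0.54 ± 0.08 (SE, n = 4) was 68.7% of the AAV_Null level and missed the threshold at an adjusted p of 0.0518. It kept its sign in 15 of 15 alternatives and passed the threshold in 6 of them. Cfi, factor I, which cuts C3b and C4b, had -0.22, -0.31, -0.27 and -0.72 at an adjusted p of 0.107. C4bp, the α chain of C4b-binding protein, a cofactor of factor I, had -0.08, 0.85 and 0.63 on arrays 2, 3 and 4, and its fitted 0.33 had an adjusted p of 0.145. Vtn and Cfi were below 0 on every array, and C4bp was above 0 only on arrays 3 and 4, with a fitted dye effect of -0.41.

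**Figure D3:**
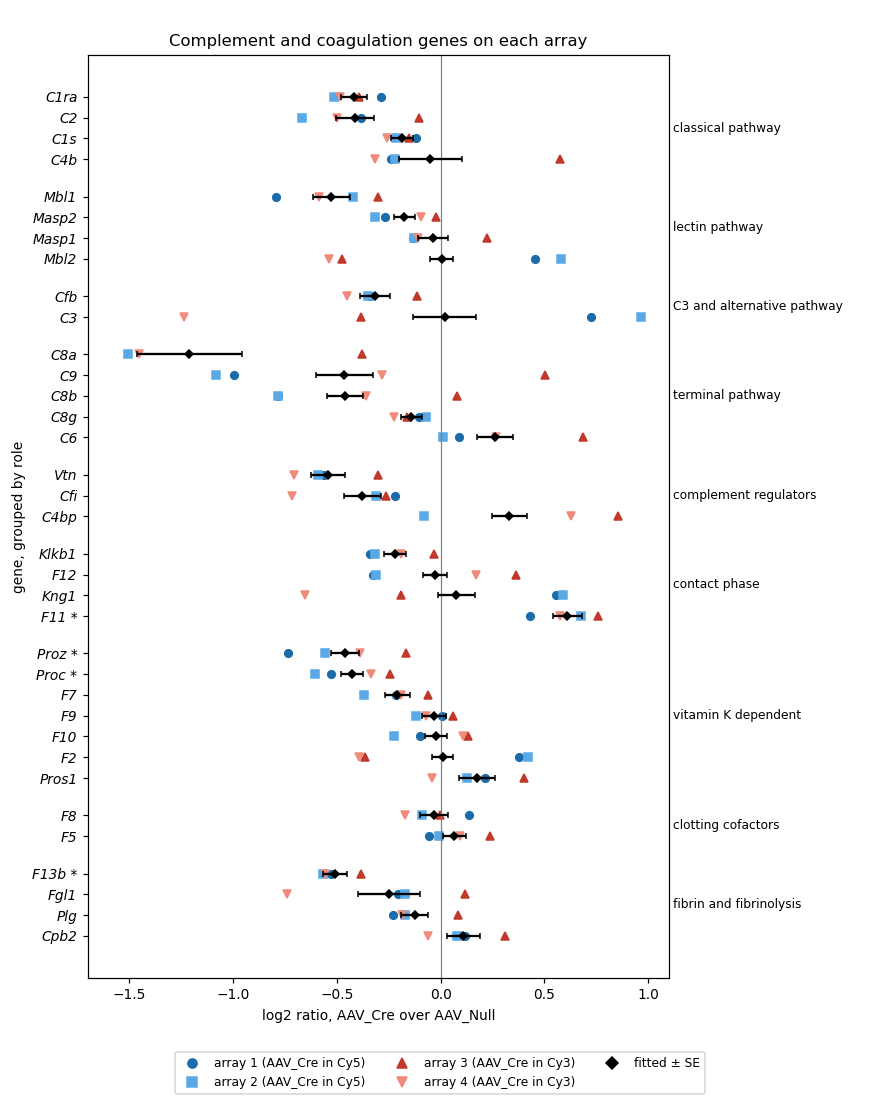
Log2 ratio of AAV_Cre over AAV_Null for the 35 factors tested (rows, grouped by role), with 1 point per array and the fitted ratio ± SE. An asterisk marks the called genes F11, Proz, Proc and F13b. Array 3 lies above the other arrays for most of the 35 factors, among them C4b, C6, C8b and C9 and the called F11, F13b, Proc and Proz.

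Across the whole set, 25 of 35 factors had a fitted ratio below 0, against 50.7% of all genes. The complement genes had a median of -0.25, with 14 of 18 below 0, and the coagulation genes a median of -0.03, with 11 of 17 below 0, beside a median of -0.003 over all genes. On arrays 1 to 4 the complement median was -0.25, -0.31, -0.13 and -0.41, and the coagulation median was -0.10, -0.17, 0.06 and -0.19. The complement median was thus the lower of the pair on every array, a difference that was not tested since genes of 1 RNA are not replicates. Without array 3 the complement median was -0.40. Under median centring in place of loess it was -0.17, and the coagulation median turned to 0.02 where the median of all genes was 0.02.

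Of the complement genes, 10 were below 0 on every array measured, and C6 was the 1 gene above 0 on each. Of the coagulation genes, 5 were below 0 on every array and F11 was the 1 above. The background was 11.4% of all genes below and 12.1% above 0 on every array. The normalised levels of AAV_Cre and AAV_Null RNAs did not overlap for 11 factors, against 5.91% of all genes. Of these, C1ra, C2, C8a, Cfb, Masp2, Mbl1 and Vtn were complement genes, all lower in AAV_Cre RNA, and F11, F13b, Proc and Proz were the coagulation genes. In these counts Masp2 stands as its brightest probe, at -0.17, while its variant 1 probe had 0.43 and was above 0 on every array. At an unadjusted p under 0.05, 5 of the 17 coagulation genes were lower and 1 was higher, beside 22.6% of all genes in either direction. In whole liver, fewer cells of a type and less RNA per cell cannot be told apart.

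Several of the brightest factors differed by dye, and so did some dimmer factors. Among 7 factors of a mean log2 intensity of 17 or more, the fitted dye effect had a median of 0.39 and a range of -0.18 to 0.83, and over the 265 genes of that brightness it had a median of 0.34. C3, the central complement protein, had 0.73, 0.97, -0.38 and -1.24, with a dye effect of 0.83 and a fitted ratio of 0.02 ± 0.15 (SE, n = 4). Kng1 had 0.56, 0.59, -0.19 and -0.65, and F2 and Mbl2 split in the same way. For these 4 genes the sign followed the dye, and their treatment ratios rest on the mean of opposed values. A dye effect had an unadjusted p under 0.05 in limma for 11 of the 35 factors and for 25.9% of all genes. The 11 also included dimmer factors, namely F12, C9, C4bp, C8b, F10 and the called Proc and Proz, with dye effects from -0.58 to -0.14. Across the 35 factors Pearson correlations of the ratios were 0.95 for arrays 1 and 2, 0.76 for arrays 3 and 4, and 0.02 to 0.24 for arrays of opposite orientation, beside 0.66, 0.49 and 0.07 to 0.19 over all genes, as a description over genes that share RNAs.

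**Figure D4:**
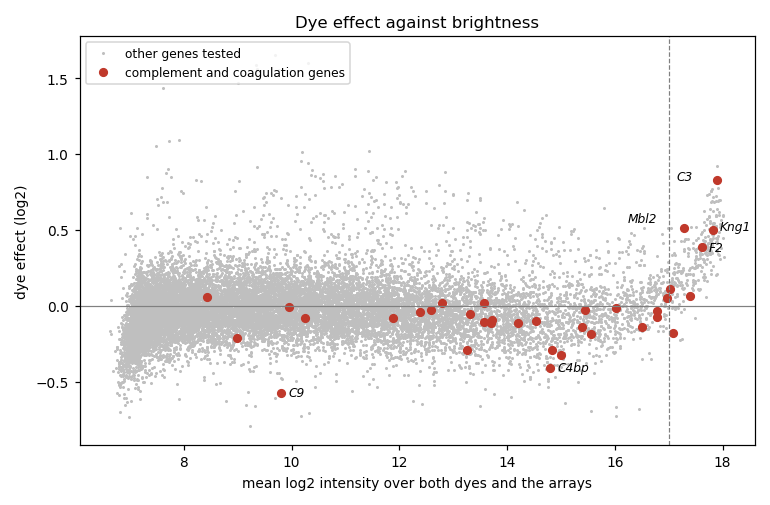
Fitted dye effect (log2, vertical axis) against mean log2 intensity for the 16079 genes tested (grey) and the 35 factors (red), with a dashed line at 17. The dye effect climbs at the bright end, where C3, Mbl2, Kng1 and F2 lie between 0.39 and 0.83.

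Other genes of both systems were read from a list. Of 26 further complement genes, 21 were tested, with 1 higher and 1 lower. Colec10, a collectin of the lectin pathway that stellate cells also express, had 0.70, 0.76, 0.06 and 0.25, with a fitted 0.44 at an adjusted p of 0.0406. Colec10 was thus above 0 on every array, with its larger values on arrays 1 and 2 and a fitted dye effect of 0.29. The median of the 21 was -0.17.

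Of 27 further coagulation genes, 23 were tested and 0 were called in limma. At an unadjusted p under 0.05, 6 of the 23 were lower and 1 was higher, beside 22.6% of all genes in either direction. The smallest p-values were those of Serpinf2, the inhibitor of plasmin, at -0.42, Hgfac, an activator of hepatocyte growth factor, at -0.26, and the thrombin inhibitors Serpind1 and Serpinc1 at -0.26 and -0.23. Their adjusted p-values ran from 0.0668 to 0.107. Serpinc1 had 0.11, 0.17, -0.53 and -0.68 on arrays 1 to 4, so its sign followed the dye. The fibrinogen chains Fga, Fgb and Fgg had -0.40, -0.36 and -0.29 and were not called.

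Between 51.0% and 58.7% of the 43020 non-control spots per array were well above background in a channel, and 0 were saturated. Cebpa was called lower at a fitted -0.59 (adjusted p = 0.0298 in limma), with -0.76, -0.82, -0.51 and -0.27 on arrays 1 to 4. All 10 hepatocyte markers were tested, at a median log2 intensity of 17.46 and a median ratio of -0.06. Trf was called lower in limma at -0.52 (adjusted p = 0.0445), with 0.27, 0.33, -1.18 and -1.51 on arrays 1 to 4. Alb had -0.39 without a call, with 0.39, 0.27, -0.95 and -1.27, so the sign of both followed the dye. The 10 endothelial markers had a median ratio of -0.15, with 0 called in limma and 6 lower and 1 higher at an unadjusted p under 0.05. Of the 25 acute phase genes, 0 were called in limma, with 4 higher and 1 lower at an unadjusted p under 0.05. Over all genes 22.6% reached that level in either direction, which is the background for the endothelial and acute phase counts. The acute phase median was 0.70 on array 3 and between -0.30 and -0.08 on the others. The 10 Kupffer cell and macrophage markers had a median of 0.34 on array 3 and between -0.65 and -0.29 on the others, and the 6 neutrophil markers had 0.60 against -0.30 to -0.20.

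Array 3 was also the only array on which C4b, C9, C8b, Masp1, Plg and Fgl1 stood above 0, and it was the highest array for most factors of both arms. The part of inflammation or of the listed cell types in the ratios was not tested. The summed log2 level of the acute phase genes was 19.92 to 20.55 in AAV_Cre RNAs and 20.10 to 20.66 in AAV_Null RNAs, and that of the Kupffer markers 14.78 to 15.77 and 15.30 to 15.96. Neither pair of ranges was separate. Of 8 adipocyte markers, Adipoq, Lep and Plin1 were not tested, and Cidec, which liver also expresses with lipid storage, was called higher at 1.39 (adjusted p = 0.0168). The summed level of the 5 tested was 16.14 to 16.69 in AAV_Cre RNAs and 15.74 to 15.92 in AAV_Null RNAs, and most of it was Car3, a gene of mean log2 intensity 16.13 that hepatocytes share. Of the stellate cell markers, Col3a1 and Colec10 were called higher out of 8 tested.

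**Figure D5:**
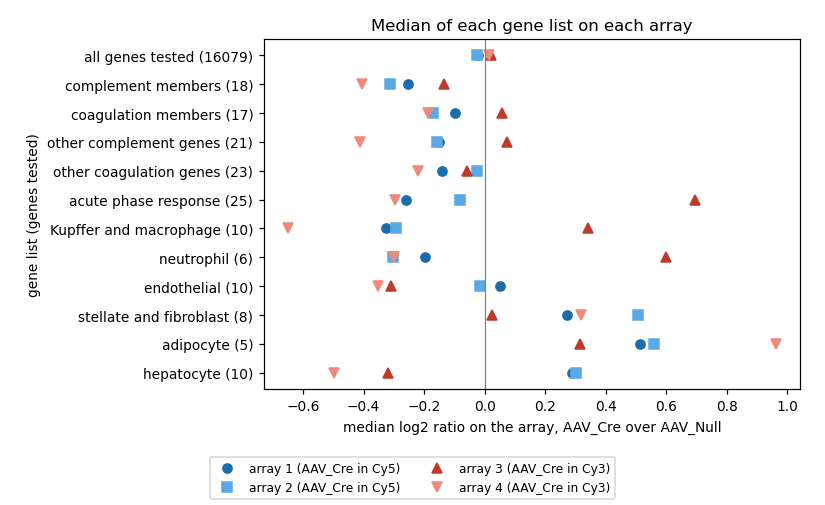
Median log2 ratio of each gene list on each array (horizontal axis), with the number of genes tested in brackets. Array 3 stands to the right of the other arrays for the acute phase, Kupffer and neutrophil lists, and for the complement and coagulation genes. The complement genes lie below 0 on all arrays.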

How the data were processed

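Per the file headers, the scans were quantified in Agilent Feature Extraction 11.5.1.1, which gave each spot an intensity and a background per dye and a log10 ratio of Cy5 over Cy3. The authors deposited a table of log2 values as well, and the submitters' processing notes mention limma with no version. On arrays 1 to 4 these log2 values had slopes of 3.34, 3.33, -3.29 and -3.39 against the log10 ratio, where the log2 of 10 is 3.32, which fits AAV_Cre over AAV_Null on each array. Their medians were -0.02, -0.04, 0.04 and 0.04, and their normalisation is not given in the sources used here.

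Mean intensities were background-corrected with normexp (offset 50) and normalised by loess within each array (limma 3.58.1, R 4.3.3). Outlier-marked spots were dropped, except for probes with no other spot on any array, and spots of a probe were averaged. Tested probes were well above background in 3 or more of 4 channels of a treatment and had values on at least 3 arrays. A treatment and a dye effect were fitted by lmFit and eBayes, with at most 2 residual and 2.67 prior degrees of freedom. The brightest tested probe stood for a gene, and Benjamini-Hochberg adjustment ran over 16079 genes, of which 445 passed 0.05. The 4 arrays limit the precision, and p-values measure the spread between arrays, which may be technical. A lone exact sign permutation could not go below 0.125. Levels per RNA come from the same loess values with Aquantile scaling.

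The labels' protocols describe both a low-input kit with 200 ng and a larger reverse transcription, and which was used is not settled here. Coordinates of probes are mm9, from the array files, and symbols were updated through RefSeq (GRCm38.p6). The fit was also run on simulated data with independent normal noise, as the model assumes, so that run cannot show how the fit holds for these arrays. The factors, lists and tests were chosen with earlier results of these data known. Values on each array are given for called factors and the 3 largest changes of each arm in either direction, and others were added to describe a count. Of the further pathway genes called, 1 is not reported here. Alternatives were no dye effect, other background and normalisation settings, filters, probe rules and variance models, the deposited values, a looser threshold and each array left out.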

Additional observations from a re-analysis of the deposited data

Results flagged for a closer look

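Of 33 factors with values on all 4 arrays, 2 had 1 array far from the others by Dixon's criterion. About 1 in 20, or 1.65 of the 33, would be marked by chance. The C4b ratio of 0.58 on array 3 stood above the other arrays, at -0.31 to -0.22. The Masp1 ratio of 0.23 on array 3 stood above the range of -0.13 to -0.11. In both cases it was array 3, which was the highest array for most factors. The acute phase, Kupffer and neutrophil lists also stood apart on it, and the part of these lists in the values was not tested.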

How the results depend on the processing

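In place of 4 factors called, limma gave 0 with any array left out (range 0 to 0), 0 at an offset of 16, 0 without variance moderation and 2 (F11 and F13b) with no filter on dim probes. It gave 15 with an intensity trend and robust variance estimate, 8 with the authors' deposited values and 8 at an adjusted p under 0.10. The count over all genes, 445, was 270 without the dye effect, 202 at an offset of 16, 730 from scanner-processed ratios, 756 under median centring, 1472 with the trend and robust estimate, 0 without moderation, 1382 from the deposited values, 1287 at the looser threshold and 0 to 37 with an array left out. The median of all factors, -0.14, moved to -0.030 under median centring, and with an array left out it ran from -0.20 to -0.09. Some signs turned, also for C8g and Masp2, which had an unadjusted p under 0.05. Under median centring they turned for C4b (0.084), C8g (0.0064), F10 (0.12), F12 (0.067), F9 (0.022), Masp1 (0.029) and Plg (0.017), and with the mean of probes for Masp2 (0.041). With an array left out, ratios that crossed 0 were C3 from -0.19 to 0.23, C4b from -0.27 to 0.17, F10 from -0.053 to 0.012, F12 from -0.074 to 0.023, F2 from -0.0011 to 0.020, F8 from -0.088 to 0.025, F9 from -0.064 to 0.00089, Kng1 from -0.040 to 0.19, Masp1 from -0.12 to 0.048 and Mbl2 from -0.026 to 0.035. The cause was not tested. Dim genes such as Cfd are limited by signal over background.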
